A study of Arabidopsis thaliana with 6 samples.

Results

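Cysteine proteases, vacuolar processing enzymes, subtilases and serine carboxypeptidases were examined in seeds of the Arabidopsis thaliana agl67 mutant and of the wild type. The members are the 129 probe sets, of 22810 on the array and 22746 without control probe sets, whose title in the authors' deposited table names a cysteine proteinase, a vacuolar processing enzyme, a subtilase or a serine carboxypeptidase. By title they comprise 4 vacuolar processing enzymes, 49 subtilases, 52 serine carboxypeptidases and 1 probe set titled as related to cysteine proteinase inhibitors. The remaining 23, titled cysteine proteinases, were taken as the papain type. Of the 129, 100 name 1 gene each, 5 name several genes and 24 are unnamed here and are given by their probe set number. Proteases titled in other words, such as the subtilisin-like ALE1, are not members.

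RNA of whole seeds was read on 6 Affymetrix arrays, 3 for wild-type Columbia-0 (Col-0) and 3 for a mutant in the same ecotype, called mads-box mutant in the labels and agl67 in the notes deposited with the table. The labels name no allele and say only that replicates are biological, so what the replicates share is not known. The p-values set the genotype difference against the spread between these samples only. Seeds of both genotypes had been kept in water for 3 days at 4 °C in darkness, which breaks dormancy, and were then moved to light at 22 °C for 3 hours, with abscisic acid (ABA) at 5 µM. This hormone delays germination. No seeds without ABA were part of the comparison.

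Seeds store protein in vacuoles and break it down to amino acids as the seedling establishes. Vacuolar processing enzymes, or legumains, cleave after asparagine residues and mature the storage proteins, while papain-type cysteine proteinases degrade proteins in vacuoles and other compartments of the secretory pathway. Subtilases are serine endopeptidases, most of them secreted to the cell wall, and serine carboxypeptidases remove single residues from the carboxyl end of peptides. Members of the serine carboxypeptidase-like group can also act as acyltransferases in plant secondary metabolism.

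AGL67 (AT1G77950), which encodes a MADS-box transcription factor, had log2 values of 8.79, 8.25 and 8.78 on the wild-type arrays and of 4.15, 4.30 and 3.66 on the mutant arrays, in the direction that the labels give. The third wild-type array stood apart from the other arrays, with a median of 3.80 against 3.97 to 4.00 and a weight of 0.209 against 0.787 to 1.94 in limma's estimate of array quality. Across the 129 members it read above both other wild-type arrays for 51, below both for 50 and between them for 28. Transcripts of the mature seed were bright in both genotypes, with mean log2 values of 12.33 and 12.46 for EM1, 13.94 and 13.96 for GEA6 and 13.67 and 13.41 for the cruciferin CRA1 in wild type and mutant. The seed coat genes BAN (3.26 and 3.17) and TT12 (4.18 and 4.02) and the endosperm genes ALE1 (3.17 and 3.02) and EXPA2 (3.78 and 4.62) did not pass the threshold. EXPA2 was higher by 0.84, with all mutant arrays above the wild-type arrays and an unadjusted p under 0.05 in limma. Of the embryo markers listed, only PDF1 was paired with a probe set, with means of 6.77 and 6.25. PDF1 did not pass with all arrays (-0.51) and passed as lower without the third wild-type array (-0.72, limma adjusted p = 0.0105). RNA came from whole seeds, so a change in the share of a cell type and a change in RNA per cell cannot be told apart.

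In mutant seeds 9 of the 129 protease probe sets rose, 1 fell and 119 did not pass an adjusted p of 0.05 in limma. Of all 22746 probe sets 1.93% rose and 0.778% fell, 2.70% in either direction. The risers were 3 papain-type cysteine proteinases (AT3G45310, CP1 and 249187_at), 4 serine carboxypeptidases (scpl29, AT2G24280, scpl35 and scpl26) and 2 subtilases (253218_at and AT3G14240), each higher by more than 1 on the log2 scale. Subtilase SBT3.5 fell. Of the 129 members, 116 lay within 0.5 of no change, beside 20682 of all 22746 probe sets. The median was 0.00 over all members, beside 0.02 over all probe sets.

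**Figure D1:**
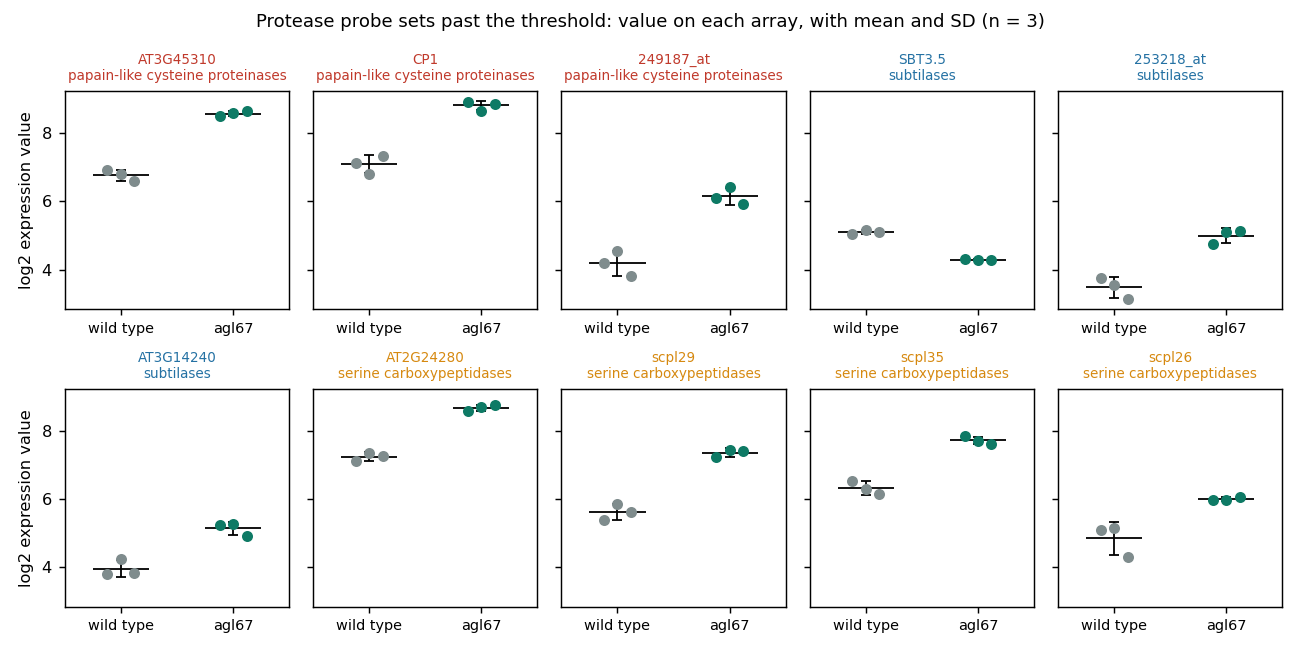
Log2 expression value (vertical axis) of the 10 protease probe sets that passed the threshold, on each of the 3 wild-type and 3 agl67 arrays, with the mean and SD of each genotype (n = 3). In all 10 panels the mutant arrays lie on 1 side of the wild-type arrays, above them in 9 and below them for SBT3.5. The 10 were chosen by p-values from these same arrays, so this separation is no further evidence. Over all probe sets the mutant arrays lie above for 14.9% and below for 9.16%.

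Among the cysteine proteinases, AT3G45310 read 6.91, 6.79 and 6.58 on the wild-type arrays and 8.49, 8.57 and 8.64 on the mutant arrays. It is titled only as a putative cysteine proteinase. The genotypes did not overlap. Within the mutant the spread was smaller than within the wild type, as was the median SD over all probe sets (0.10 against 0.19). The means were 6.76 ± 0.16 and 8.57 ± 0.08 (SD, n = 3), a rise of 1.81 (SE 0.12) on the log2 scale or 3.50-fold, with a limma adjusted p of 0.00169. A two-sided exact permutation test of its values returned p = 0.1, and 3 arrays against 3 can give none smaller.

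CP1 (AT4G36880), a papain-type proteinase also known as RD21A-like protease, read 7.13, 6.80 and 7.32 in wild type and 8.91, 8.65 and 8.86 in the mutant. Every mutant array was above every wild-type array. CP1 rose by 1.72 (SE 0.15), 3.30-fold (limma adjusted p = 0.00354). The unnamed probe set 249187_at, titled a putative cysteine proteinase and thiol protease, read 4.20, 4.54 and 3.81 in wild type and 6.10, 6.42 and 5.91 in the mutant. It had the largest difference of the 129 members, 1.96 (SE 0.21) or 3.89-fold (limma adjusted p = 0.00557), again without overlap. AT3G45310, CP1 and 249187_at passed in each of the 6 fits that left out 1 array, with differences of 1.72 to 1.88, 1.58 to 1.84 and 1.77 to 2.14.

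The other 20 papain-type probe sets did not pass. RD19, named for its induction by dehydration, read 8.47, 8.38 and 8.43 in wild type and 8.81, 8.81 and 8.60 in the mutant, a difference of 0.32 (95% interval 0.08 to 0.56, limma adjusted p = 0.185). AT3G19390 read 2.88, 3.13 and 2.75 in wild type and 3.35, 3.59 and 3.19 in the mutant, a difference of 0.46 (0.12 to 0.81, adjusted p = 0.178 in limma). For both of these the mutant arrays lay above the wild-type arrays without passing over all probe sets. AT2G27420 lay lower on all mutant arrays, with a difference of -0.27 (-0.50 to -0.04, limma adjusted p = 0.237).

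ALP, the aleurain-like protease of the vacuole, read 4.46, 4.56 and 4.48 in wild type and 4.29, 4.53 and 4.39 in the mutant, and the genotypes overlapped. Its difference was -0.10, with a 95% interval of -0.34 to 0.14. RD21A, another dehydration-responsive protease, read 3.54, 3.37 and 4.12 in wild type and 3.82, 4.08 and 4.10 in the mutant, so the third wild-type array lay above all mutant arrays. Without that array RD21A passed, with a difference of 0.54 (limma adjusted p = 0.0338), against 0.32 with it. SAG12, a marker of leaf senescence, read 2.54 to 2.62 in wild type and 2.70 to 2.84 in the mutant and did not pass. Bright papain-type probe sets included AT3G54940, with means of 12.48 and 12.56, and 254915_s_at, which is titled for a pair of genes and read 12.04 to 12.11 in wild type and 11.85 to 11.91 in the mutant. Their differences were 0.08 (95% interval -0.13 to 0.30) and -0.18 (-0.39 to 0.03).

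None of the 4 vacuolar processing enzymes passed, and none had an unadjusted p under 0.05 in limma. Of all probe sets 2.70% passed, and 11.1% were higher and 5.33% lower at that unadjusted p, so 4 probe sets say little about the class. BETA-VPE (AT1G62710), the seed type that processes storage proteins, read 11.78, 11.81 and 12.06 in wild type and 11.71, 11.66 and 11.82 in the mutant. Its difference was -0.15 with a 95% interval of -0.41 to 0.12. GAMMA-VPE (AT4G32940), a vegetative type also linked to cell death, read 8.97, 9.07 and 8.82 in wild type and 8.97, 9.21 and 9.15 in the mutant, a difference of 0.15 (-0.11 to 0.42). ALPHA-VPE, the other vegetative type, differed by -0.15 (-0.52 to 0.23), and DELTA-VPE, known from the developing seed coat, by 0.18 (-0.06 to 0.42), with wild-type arrays at 2.64 to 2.80 and mutant arrays at 2.78 to 2.97. For all 4 the genotypes overlapped, as they did for 17278 of all 22746 probe sets. The intervals leave room for changes of up to 0.52 on the log2 scale.

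Of the 49 subtilases 2 rose, 1 fell and 46 did not pass, with a median difference of -0.02. Over all probe sets 1.93% rose and 0.778% fell, with a median of 0.02. SBT3.5 (AT1G32940), known in roots for processing a pectin methylesterase, read 5.03, 5.16 and 5.12 in wild type and 4.31, 4.28 and 4.28 in the mutant. The values of each genotype lay close together and did not overlap with those of the other. SBT3.5 fell by 0.82 (SE 0.09) on the log2 scale, with a limma adjusted p of 0.00712. Leaving out a wild-type array kept the call in all 3 cases. Leaving out any mutant array ended it, with differences of -0.82, -0.81 and -0.81 and limma adjusted p-values of 0.0573, 0.0631 and 0.0653.

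Subtilase probe set 253218_at read 3.75, 3.56 and 3.14 in wild type and 4.75, 5.10 and 5.13 in the mutant. It rose by 1.51 (SE 0.18), 2.85-fold (limma adjusted p = 0.00942), and did not pass without the second (1.46, 0.0694) or the third mutant array (1.44, 0.0725). Its wild-type readings lay under the median of all probe set means, 3.94. Whether they lie above background is not known, so the fold is uncertain. AT3G14240 read 3.81, 4.26 and 3.84 in wild type and 5.24, 5.26 and 4.94 in the mutant. It rose by 1.18 (SE 0.16), 2.26-fold (limma adjusted p = 0.0132), and the call was lost when any mutant array was left out (1.12 to 1.28, adjusted p from 0.0540 to 0.0875). On both probe sets every mutant array was above every wild-type array.

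The subtilases that follow are among the 46 that did not pass. S1P, the site-1 protease that releases membrane-bound bZIP factors in the Golgi, had means of 6.08 and 6.12 in wild type and mutant, and the third wild-type array, at 5.63, was the lowest of the 6. The difference of S1P was 0.05 with that array and -0.18 without it, and neither passed. TPP2, the tripeptidyl peptidase that works with the proteasome on peptides of the cytosol, read 8.82, 8.98 and 8.81 in wild type and 8.98, 8.90 and 9.07 in the mutant, a difference of 0.11 (95% interval -0.13 to 0.35). AT2G05920 had means of 7.99 and 8.06, and AT3G14067 of 6.75 and 6.55. SBT1.3 differed by 0.25 (-0.04 to 0.54), with means of 2.99 and 3.24, and AT5G58820 by -0.18 (-0.40 to 0.03).

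Serine carboxypeptidases rose in 4 cases, and 48 of the 52 did not pass, while 1.93% of all probe sets rose. The 47 whose titles do not name family S28 were grouped as family S10 or carboxypeptidase III, and 3 of them rose. Titles of the other 5 name family S28, and 1 of these rose. The S28 enzymes are relatives of the lysosomal prolyl carboxypeptidase of mammals. Among them AT2G24280 read 7.11, 7.35 and 7.27 in wild type and 8.58, 8.69 and 8.74 in the mutant. It rose by 1.42 (SE 0.11), 2.68-fold (limma adjusted p = 0.00324), with no overlap between genotypes. The other S28 members differed by 0.22 (AT5G65760), 0.15 (265811_at), 0.03 (253079_s_at, which names AT4G36195 and AT4G36190) and 0.00 (AT5G22860).

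In family S10, scpl29 (AT4G30810) read 5.40, 5.86 and 5.63 in wild type and 7.22, 7.45 and 7.41 in the mutant, a rise of 1.73 (SE 0.14) or 3.32-fold (limma adjusted p = 0.00342). For scpl35 (AT5G08260) the values were 6.53, 6.28 and 6.15 in wild type and 7.84, 7.71 and 7.63 in the mutant, a rise of 1.40 (SE 0.13) or 2.64-fold (limma adjusted p = 0.00388). Neither showed overlap between genotypes. AT2G24280, scpl29 and scpl35 passed in each of the 6 fits that left out 1 array, with differences of 1.36 to 1.48, 1.62 to 1.85 and 1.31 to 1.51.

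The rise of scpl26 (AT2G35780) rested on more scattered values, 5.10, 5.16 and 4.30 in wild type against 5.97, 5.97 and 6.06 in the mutant. All mutant arrays were above the wild-type arrays, and the third wild-type array lay far below the other wild-type arrays. The difference was 1.15 (SE 0.22, limma adjusted p = 0.0436). It was 0.87 without the third wild-type array, where it passed (adjusted p = 0.00163), and 1.12 to 1.30 in the other 5 fits that left out 1 array, where it did not (0.05001 to 0.195). In the authors' deposited table scpl26 had a ratio of 1.16 and a false discovery rate of 0.0742, above the threshold.

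A serine carboxypeptidase near the threshold was scpl42 (AT5G42240), with 4.14, 4.47 and 4.51 in wild type and 4.92, 5.41 and 5.07 in the mutant. The genotypes did not overlap, and the difference of 0.76 (95% interval 0.38 to 1.14) did not pass over all probe sets (limma adjusted p = 0.0606). It passed without the third wild-type array, with 0.83 (limma adjusted p = 0.0197), and with array weights, with 0.73 (0.0239). With the 40% of probe sets of lowest mean left out (0.0467), and with the replicate number as a block (0.0480), scpl42 passed as well. Under the remaining alternatives scpl42 did not pass. SCPL45 lay higher on all mutant arrays with a difference of 0.52 (0.17 to 0.87, limma adjusted p = 0.137). In scpl20 the third wild-type array decided the call, with 4.92, 4.91 and 3.83 in wild type and 3.85, 4.20 and 4.20 in the mutant, and the difference was -0.47 with that array and -0.83 without it (limma adjusted p = 0.476 and 0.00745).

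SCPL49, the plant carboxypeptidase Y of the vacuole, read 7.96, 8.39 and 7.60 in wild type and 8.03, 8.21 and 8.23 in the mutant. Its genotypes overlapped, with a difference of 0.18 (95% interval -0.28 to 0.63) that was -0.02 without the third wild-type array. Probe set 258923_at of family S10 had means of 9.03 and 9.19 and a difference of 0.15 (-0.10 to 0.41). The lowest difference in the class, -0.52, was that of 267256_s_at, where the wild-type arrays ranged from 3.41 to 4.77, the highest being the third. Without that array its difference was -0.14.

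**Figure D2:**
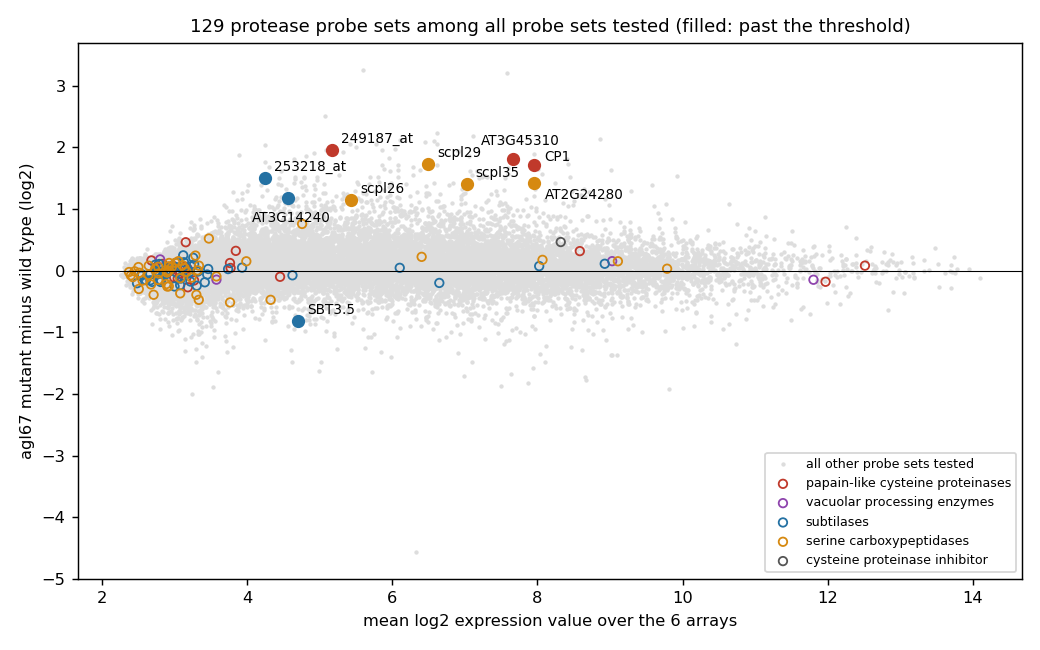
Difference between agl67 mutant and wild type (log2, vertical axis) against the mean log2 value over the 6 arrays (horizontal axis) for the 129 protease probe sets, coloured by class, over all other probe sets in grey. Filled symbols passed the threshold, and the 9 risers lie between 1.15 and 1.96 while SBT3.5 lies at -0.82.

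Low readings were common among the members. The mean over the 6 arrays was under the median of all probe sets, 3.94, for 100 of the 129 members, including 41 of 49 subtilases and 41 of 52 serine carboxypeptidases, and whether such readings lie above background is not given by the files. The 10 probe sets that passed all had means above that median, as did all but 40 of the 615 that passed over the whole array. Removal of the 40% of probe sets with the lowest means kept 40 members. Where readings of different probe sets are set side by side here, they do not compare amounts of RNA, since each depends on its own probes.

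By class, the medians of the differences were 0.07 for papain-type proteinases, 0.00 for vacuolar processing enzymes, -0.02 for subtilases and 0.00 for serine carboxypeptidases. Differences above 0 were found in 16 of 23, 2 of 4, 20 of 49 and 26 of 52 members, beside 54.9% of all probe sets. The mutant arrays lay above the wild-type arrays for 15 of the 129 members and below them for 13, beside 14.9% and 9.16% of all probe sets. At an unadjusted p under 0.05 in limma, 14 members were higher and 2 lower, beside 11.1% and 5.33% of all probe sets. The shares of non-overlapping members, and of higher members at an unadjusted p, were thus near those of all probe sets. Within genotypes the median SD over members was 0.15 in wild type and 0.10 in the mutant, beside 0.19 and 0.10 over all probe sets.

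**Figure D3:**
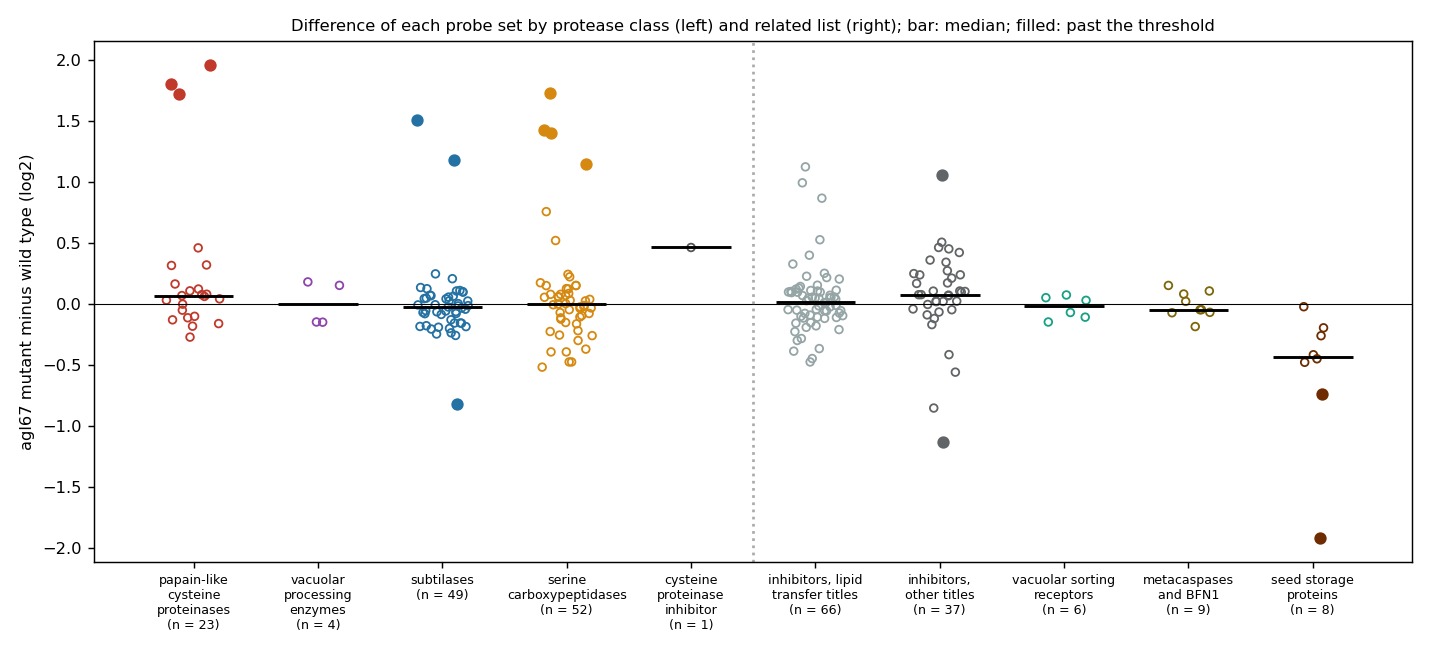
Difference between agl67 mutant and wild type (log2) for each probe set of the 5 protease groups (left of the dotted line) and of the related lists (right), with the median as a bar and probe sets past the threshold filled. Most probe sets lie within 0.5 of no change in every group, as do 20682 of all 22746 probe sets. The median of the 8 seed storage probe sets is -0.43.

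Several members belong to genes that lie next to each other in the order of protein-coding genes of RefSeq assembly TAIR10.1. Of the 100 members that name 1 gene, 30 form 13 such runs of 2 to 4 genes, and 2 runs hold a gene that passed. SBT3.5 begins a run of 4 subtilase genes on chromosome 1. AT1G32950 next to it averaged 3.72 (wild type) and 3.75 (mutant), SBT3.3, known for immune priming, of 2.74 and 2.58, and AT1G32970 of 2.73 and 2.84. These 3 neighbours did not pass, with differences from -0.16 to 0.11 beside -0.82 for SBT3.5. On chromosome 2 scpl26 lies beside scpl28, which read 3.17, 3.46 and 3.85 in wild type and 3.12, 3.04 and 3.13 in the mutant. The difference of scpl28 was -0.39 (95% interval -0.79 to 0.00), while that of scpl26 was 1.15. Whether neighbours differ from each other was not tested. Similar neighbours can share probes.

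**Figure D4:**
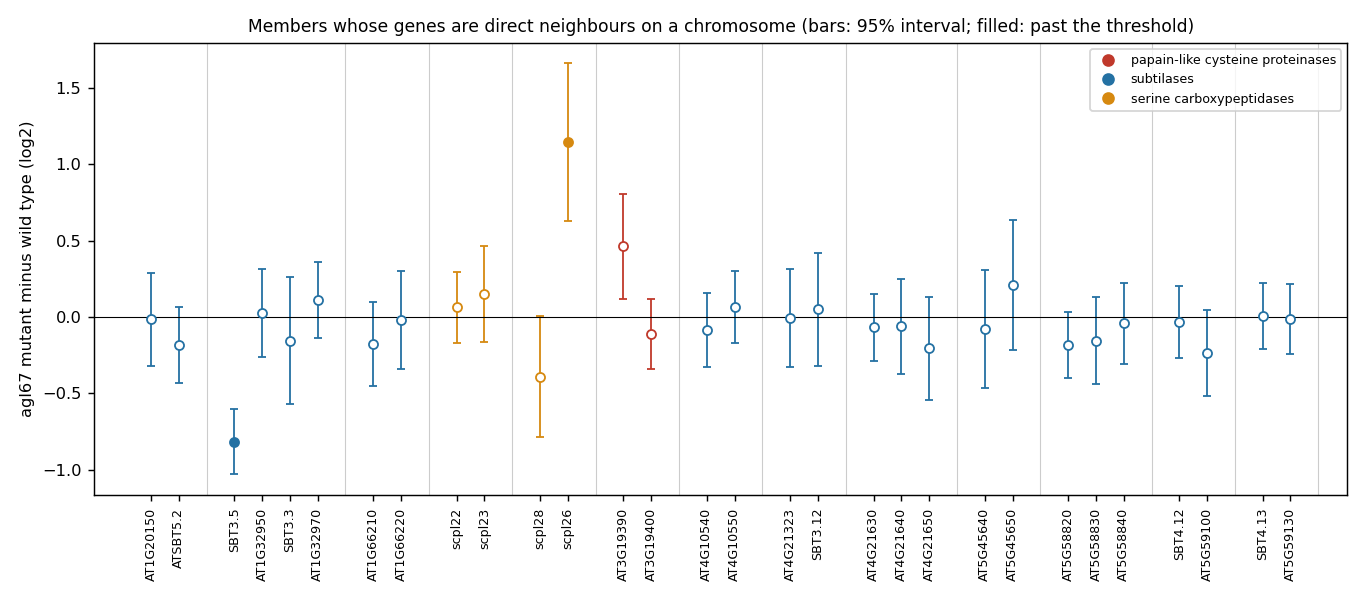
Difference between agl67 mutant and wild type (log2) for the 30 members in 13 runs of neighbouring genes, with 95% intervals, vertical lines between runs and filled symbols for genes past the threshold. SBT3.5 (-0.82) and scpl26 (1.15) passed, and the neighbours in their runs lie between -0.39 and 0.11.

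Related genes were counted in lists chosen for their known links to these proteases. Inhibitors formed 103 probe sets by gene or title, 1 of them a member. Of the 103, 1 rose, 1 fell and 101 did not pass, while 1.93% of all probe sets rose and 0.778% fell. Among the 103, 66 are titled for lipid transfer proteins, a family that shares the title with inhibitors, and none of the 66 passed. At an unadjusted p under 0.05 in limma 4 of the 66 were higher and 3 lower, beside 11.1% and 5.33% of all probe sets. CYSA (AT2G40880), a cystatin and thus an inhibitor of papain-type proteinases, read 8.02, 7.96 and 7.89 in wild type and 9.02, 8.86 and 9.18 in the mutant. It rose by 1.06 (SE 0.11), 2.09-fold (limma adjusted p = 0.00582), with no overlap, and passed in each of the 6 fits that left out 1 array (0.98 to 1.14). AT2G38900, of the potato inhibitor I family of serine protease inhibitors, read 8.37, 7.88 and 8.24 in wild type and 7.20, 6.76 and 7.17 in the mutant. It fell by 1.13 (SE 0.17, limma adjusted p = 0.0216) and the call was lost when any mutant array was left out (-1.20 to -0.98). The member titled as related to cysteine proteinase inhibitors, 265672_at, read 8.23, 8.13 and 7.90 in wild type and 8.14, 8.81 and 8.71 in the mutant, overlapped between genotypes and did not pass (0.46, 95% interval 0.02 to 0.91).

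Most vacuolar sorting receptors and metacaspases were found by title. None of 6 probe sets for the receptors, which carry proteins to the vacuole, and none of 9 for metacaspases and the nuclease BFN1 passed, and none had an unadjusted p under 0.05 in limma. Over all probe sets 2.70% passed, and at that unadjusted p 11.1% were higher and 5.33% lower. The medians of the 6 and of the 9 probe sets were -0.02 and -0.04. With the smallest p-values, 265161_at and 255861_at among the receptors differed by -0.11 and -0.15, and 254093_at and 264120_at among the metacaspases by 0.11 and 0.15. Of 8 seed storage protein genes paired with a probe set, of 11 listed, 2 fell and 6 did not pass. Their median was -0.43 and all 8 were below 0. Of all 22746 probe sets 0.778% fell and 10262 were below 0. The storage genes that passed were the albumin gene SESA4 with -1.91 and the cupin gene AT1G03890 with -0.73. The call of SESA4 was lost with the second wild-type array left out (limma adjusted p = 0.0547), and likewise with the first (0.0516) or the third mutant array left out (0.0570), and AT1G03890 passed in 2 of the 6 fits that left out 1 array.

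**Figure D5:**
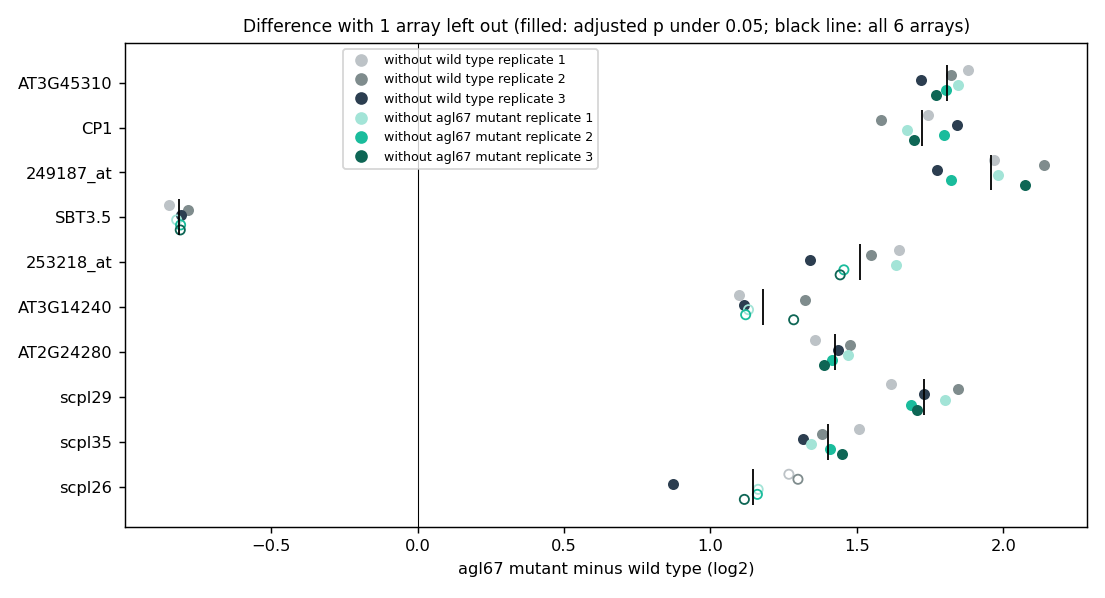
Difference between agl67 mutant and wild type (log2, horizontal axis) of the 10 protease probe sets that passed, in each of the 6 fits that left out 1 array, with filled symbols for an adjusted p under 0.05 and a black line for all 6 arrays. AT3G45310, CP1, 249187_at, AT2G24280, scpl29 and scpl35 passed in all 6, and scpl26 in 1.

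By the authors' deposited table, 8 members had a false discovery rate under 0.05 and a ratio above 0, and 1 had a ratio below 0, beside 1.56% and 0.690% of all probe sets. These 9 were among the 10 that passed in the fit described here. The authors' ratio was 1.79 for AT3G45310, 1.71 for CP1 and 1.89 for 249187_at. It was 1.73 for scpl29, 1.36 for AT2G24280 and 1.39 for scpl35. For the subtilases the authors' deposited table gave 1.48 for 253218_at, 1.00 for AT3G14240 and -0.87 for SBT3.5. Over the 129 members the authors' ratio and the difference fitted here were at most 0.18 apart.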

How the data were processed

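Total RNA from 6 seed samples was hybridised to Affymetrix arrays. The deposited series table holds the authors' log2 expression values per probe set and array, and RMA and limma are named, without versions, per the submitters' processing notes. A second deposited table compares the genotypes. Per the file headers it lists log2 ratios with limma p-values, false discovery rates and a signed fold change, which was not used. It gave the titles and an alternative set of calls.

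Values were analysed without further scaling. Mutant minus wild type was fitted by lmFit and eBayes of limma 3.58.1 (R 4.3.3) with genotype as the only term over the 22746 probe sets other than the 64 controls, with Benjamini-Hochberg adjustment over all of them and a threshold of 0.05. The 95% intervals come from this fit. The number of arrays limits the precision. In simulated data with 22746 probe sets and the residual spread of each probe set, 50 probe sets per size were changed. The fit called 6 of those changed by 0.5 (log2), 30 of those changed by 1 and 48 of those changed by 2. Noise was drawn alike for all arrays, without the lower quality of the third wild-type array. Fewer probe sets were changed than the 615 called in the real data, so these counts need not hold for it.

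Genes were named through the platform's table of genes (96 members) or, where it had none, through a name in the authors' title (4 members), looked up in RefSeq and kept where exactly 1 candidate gene shared a chromosome with any of the 10 nearest platform-named probe sets. The seed storage albumins were matched by the number in their title. Members and gene lists were chosen with earlier results of these data known, and the split of the inhibitors by lipid transfer titles was made after the files were read. Text names AT3G45310, all members past the threshold, the 4 smallest p-values and 3 highest means per class, all vacuolar processing enzymes, AGL67 and, per related list, members past the threshold or the 2 smallest p-values. Other members named, and the seed-part markers, were chosen for their known function, their position beside these or their value on the third wild-type array, after values were seen. Samples of the same replicate number had deviations from their group means that correlated at -0.16, 0.14 and 0.22, so the numbers were not taken to pair them. Promoter motifs were not analysed here.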

Additional observations from a re-analysis of the deposited data

How the results depend on the processing

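The 9 higher and 1 lower protease probe sets were recounted under 14 alternatives. With 1 array left out, 6 to 11 were higher and 0 to 2 lower, while the count over all probe sets, 615 with all arrays, ran from 86 without the third mutant array to 1530 without the third wild-type array (117 without the first and 93 without the second mutant array, 227 without the second wild-type array). The lower count was 0 without any 1 of the mutant arrays, where SBT3.5 did not pass, and 2 without the third wild-type array. With array weights, 10 were higher and 2 lower, and 1490 of all probe sets passed. Renewed quantile normalization gave 1042 over all probe sets and 9 higher and 1 lower among proteases. AT3G45310 passed under all 14 alternatives. With the replicate number as a block (replicate block), 9 were higher and 1 lower, 443 of all probe sets passed, scpl26 did not (adjusted p = 0.0559), nor did AT1G03890 (0.0569), and scpl42 did (0.0480). The samples share only a number, and not every sample correlated best with its own. Over all 129 members, signs turned for 20 with array weights, 20 with arrays centred on their medians, 11 after renewed quantile normalization, 17 in the authors' deposited table and 4 to 25 with 1 array left out, most without the third wild-type array. None of these passed in either fit, and the largest difference that turned was 0.24. Among named genes these were S1P with array weights (-0.17), median centring (-0.022), quantile normalization (-0.11) and 1 array left out (-0.18 to 0.22), AT1G32950 (-0.019, -0.042, -0.0052 and -0.062 to 0.078 under the same), AT5G22860 with array weights (0.028), quantile normalization (0.0086), the authors' deposited table (0.06) and 1 array left out (-0.047 to 0.039), SCPL49 and AT2G05920 with array weights (-0.021 and -0.0098) and 1 array left out (-0.015 to 0.38 and -0.046 to 0.15), 253079_s_at with median centring (-0.036) and quantile normalization (-0.00021), AT3G54940 with quantile normalization (-0.022), SBT3.3 with 1 array left out (-0.26 to 0.012), and outside the members GEA6 with median centring (-0.047) and BAN in the authors' deposited table (0.05). PDF1 also passed with array weights (-0.70) and after quantile normalization (-0.67), and CRA1 with an intensity trend (-0.26). The causes were not tested. Arrays give no read depth, and signal over background is not given in the files used.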
